A study of Homo sapiens with 6 samples.

Results

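The genes described here are 10 that encode or mark the junctions between epithelial cells: the cadherins CDH1, CDH2, CDH3 and CDH11, the claudins CLDN1, CLDN3, CLDN4 and CLDN7, occludin (OCLN) and the epithelial cell adhesion molecule EPCAM. Their transcripts were read in MDA-MB-231, an established line of spindle-shaped cells from a triple-negative human breast carcinoma. Cells were given TCI04, a compound for which the labels hold nothing beyond its code, at 50 µM for 48 h, or phosphate-buffered saline (PBS) as control for the same 48 h. All cultures were grown in the same medium with serum, and each group held 3 Affymetrix arrays. The members are every probe set whose only gene symbol in the platform annotation is 1 of the 10 genes, 21 of the 54613 probe sets that are not controls. Whether arrays within a group stem from separate cultures is not stated, so the p-values rest on a spread between arrays that may be technical.

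Cadherins hold neighbouring cells together at adherens junctions by pairing across the gap and tying to the actin cytoskeleton through catenins. Claudins and occludin form the tight junction, which seals the space between epithelial cells, with claudins as its strands. In the claudin-low class of breast cancer, to which MDA-MB-231 is commonly assigned, E-cadherin and several claudins are low while mesenchymal genes are high, and repressors such as ZEB1 and SNAI2 are known to act on E-box motifs of CDH1 and other epithelial genes.

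The deposited values were MAS5 signals, linear values in arbitrary units that sum up the several probes for a transcript. The trimmed mean signal was 500.1 on every array, while the median was 58.7 to 59.7 in the TCI04 arrays and 63.8 to 74.2 in the PBS arrays. TCI04 replicate 3 stood apart in RNA quality, with a 3' to 5' signal ratio for ACTB of 3.33, against 1.71 and 1.70 in TCI04 replicates 1 and 2 and 1.64 to 1.72 in the PBS arrays (two-sided exact permutation test of the groups, p = 0.3, the lowest value possible with 3 arrays each being 0.1). Probe sets with a mean signal of at least 37.0, the 40th percentile, were tested with limma. Of the member probe sets, 14 passed this filter and 7 did not, and no probe set of CDH1, CDH2 or CDH3 passed.

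The first question was how far the claudin-low pattern appears in the PBS cells. CDH1 read low in them, between the 2.7th and 18.4th percentile over both of its probe sets. CDH3 lay higher, between the 20.5th and 40.8th. CDH2 lay between the 32.3rd and 47.2nd over both of its probe sets. As a cadherin of cells that take a mesenchymal form, CDH2 is not counted toward the pattern. The other members did not all read low. The brightest probe set of CLDN3 scattered between the 27.0th and 58.5th percentile of the PBS arrays. OCLN, CLDN1 and EPCAM had a probe set in the upper 30% of its array, and CLDN4 and CLDN7 lay in the middle of the range. Probe sets differ in affinity, so these places are not an order of transcript levels, and without arrays of a luminal line it cannot be said how much lower the genes are than in epithelial cells. A place above the filter is not by itself a sign of transcript, because 6 of 9 leukocyte markers on the array also passed it, with CD79A between the 66.8th and 70.2nd percentile. The ranges of CLDN4, the 61.8th to 68.3rd percentile, and CLDN7, the 61.1st to 67.4th, overlapped that of this CD79A probe set. The other probe set of this B cell gene lay below the filter, as did the brightest probe sets of 3 leukocyte markers. The RNA came from whole cultures, so a gene that is low in every cell and one that is high in a few cells cannot be told apart.

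Most of the line's mesenchymal markers read high; the marker genes named were picked after their values were seen. In the PBS arrays the intermediate filament gene VIM averaged 30225, the receptor kinase AXL 18723 and the hyaluronan receptor CD44 9725, all above the 98th percentile, whereas the hormone receptor genes ESR1 and PGR averaged 50.3 and 25.1. All 8 mesenchymal markers passed the filter, with THY1 the dimmest at 17.2 with TCI04 and 74.6 with PBS, as did 9 of 11 luminal markers on the array, among them the keratin gene KRT18 at 16442. The summed signal of the brightest probe sets of the luminal markers was 19006 to 21348 in the TCI04 arrays and 19975 to 23449 in the PBS arrays, and that of the mesenchymal markers was 60616 to 64332 in the TCI04 arrays and 61244 to 66650 in the PBS arrays. The leukocyte markers summed to 384 to 631 in the TCI04 arrays and 556 to 739 in the PBS arrays, and the endothelial markers to 647 to 694 in the TCI04 arrays and 638 to 816 in the PBS arrays. By brightest probe set, 0 markers of these 4 lists passed the adjusted threshold (limma). Of the 8 mesenchymal markers 3 had a higher and 5 a lower mean with TCI04 (median log2 fold change -0.08). Of all tested genes, 4.23% were lower at an unadjusted p under 0.05 in limma and 6.91% were lower without overlap. Among the mesenchymal markers, 2 were lower at that p and without overlap. These were THY1, a surface glycoprotein, at -1.65 and the fibronectin gene FN1 at -0.27, each with an adjusted p of 0.698 (limma). Of the 9 tested luminal markers 1 had a higher and 8 a lower mean (median -0.19, or -0.08 after quantile normalization), with 0 at an unadjusted p under 0.05. Of 6 tested leukocyte markers 5 had a lower mean, 2 of them at an unadjusted p under 0.05, as had both tested endothelial markers, with 0 at that p. The part of these markers in the members' values was not tested.

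**Figure D1:**
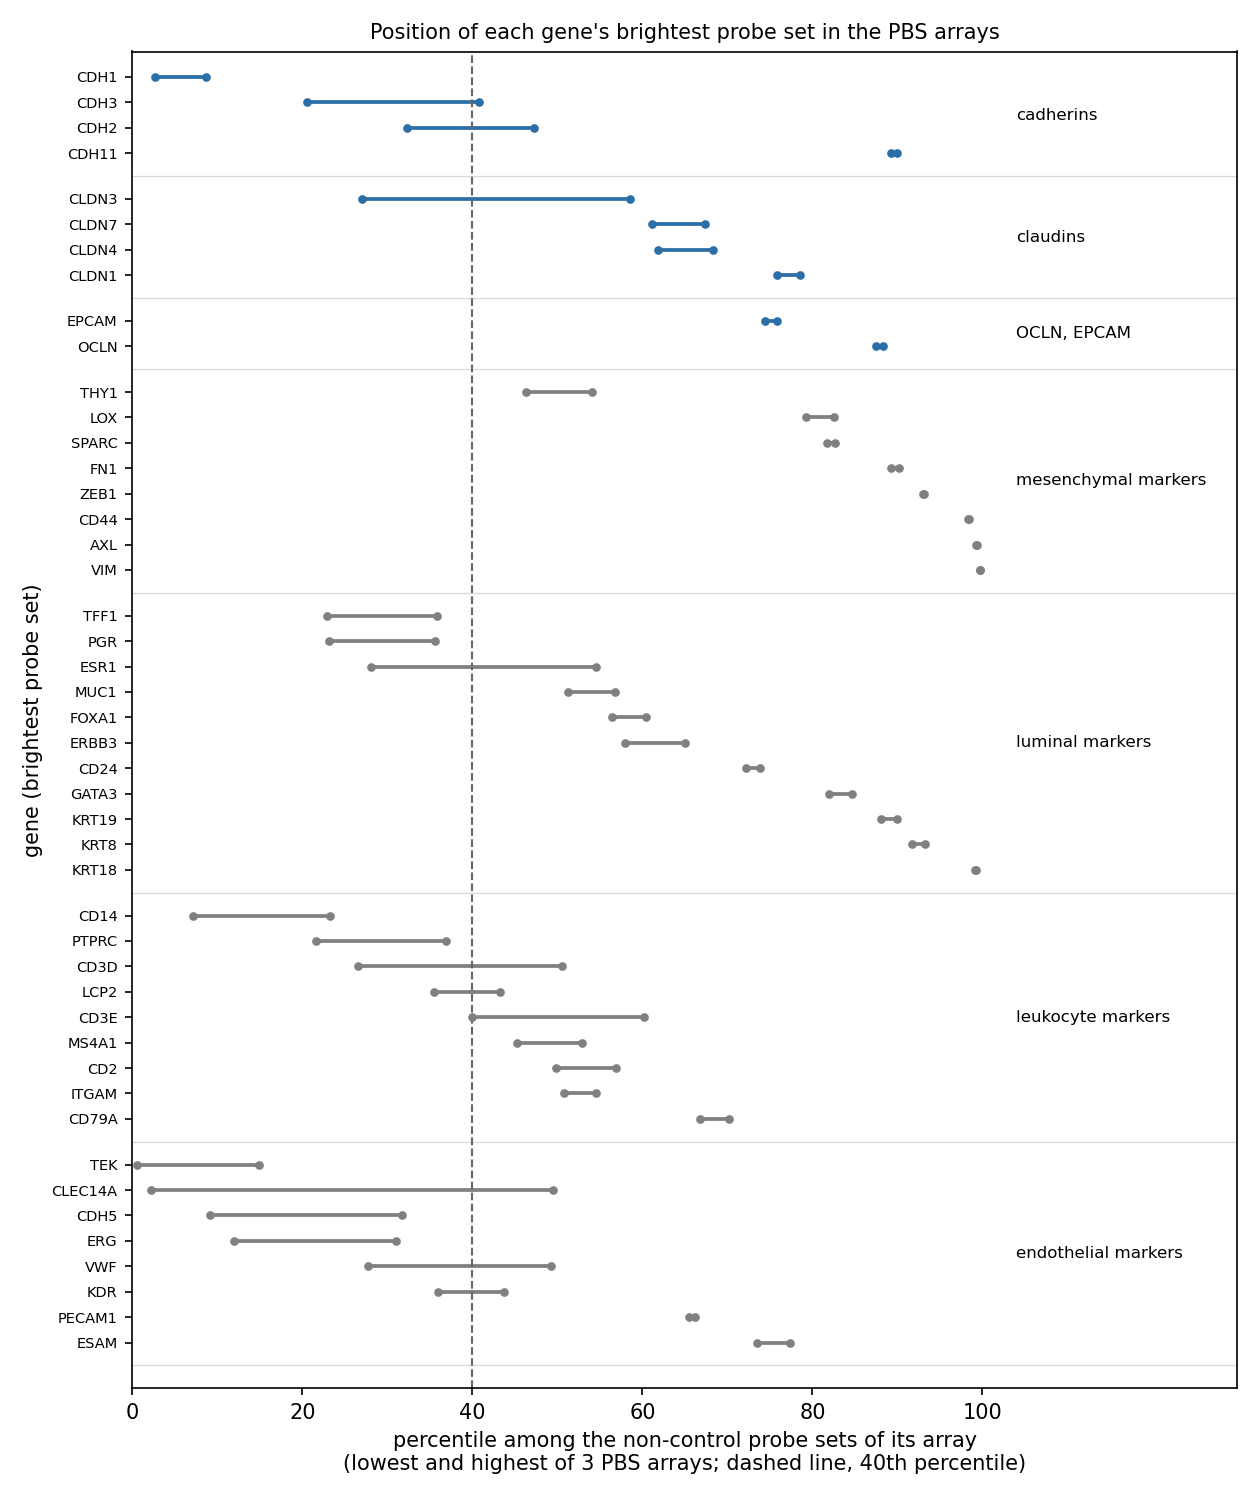
Each line spans the lowest and highest percentile of a gene's brightest probe set among the non-control probe sets over the 3 PBS arrays, for the member genes (blue) and 4 marker lists (grey). CDH1 lies below the 9th percentile on every PBS array, whereas CDH11 and OCLN lie above the 87th.

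None of the members passed the adjusted threshold of 0.05 between TCI04 and PBS. The smallest adjusted p among the 14 tested probe sets was 0.698 (limma, Benjamini-Hochberg over 32768 probe sets), and of all tested probe sets 0% passed toward higher and 0.00305% toward lower values. Of the 14, 8 had a higher and 6 a lower mean with TCI04, with log2 fold changes from -0.44 to 0.32 and a median of 0.02, against a median of -0.03 over all tested probe sets. At an unadjusted p under 0.05 in limma, 1 of the 14 (7.14%) was higher and 0 were lower, where 2.21% of all tested probe sets were higher and 4.9% lower. With 14 probe sets, 1 more or fewer moves the share by 7.14 percentage points, so this count does not set the members apart. The groups did not overlap for 2 higher and 1 lower member probe sets, where 5.34% of all tested probe sets were higher and 8.22% lower without overlap. The 95% interval of the fold change lay within 2-fold for 13 of the 14 and within 1.5-fold for 9. The exception at 2-fold was CLDN3.

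**Figure D2:**
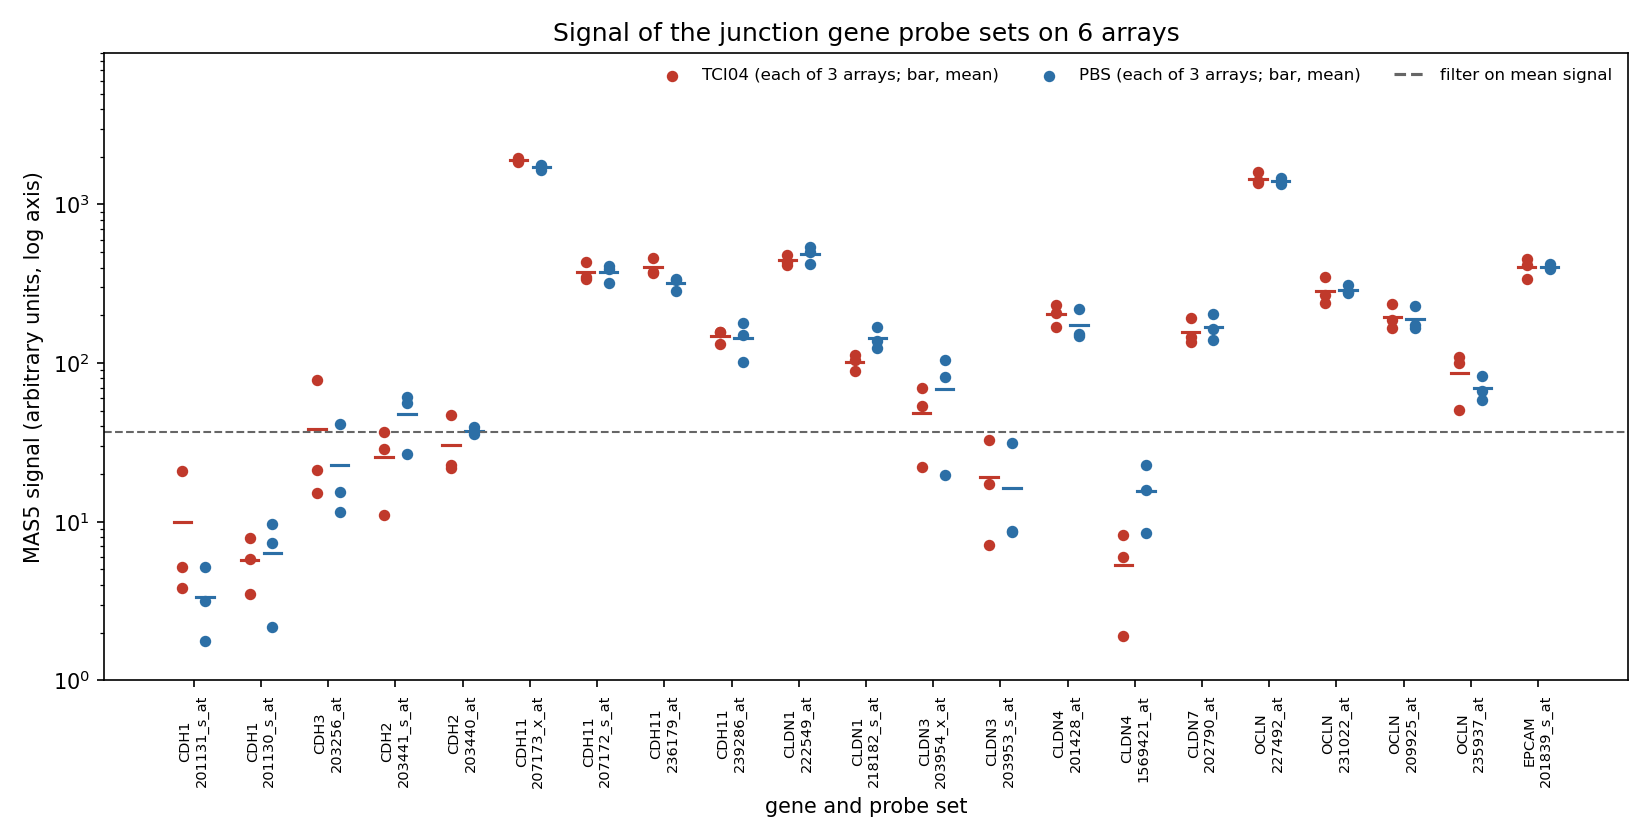
MAS5 signal (log axis) of the 21 member probe sets on each array, with TCI04 in red left of PBS in blue, bars at the group means and a dashed line at the filter of 37.0. The groups separate in the probe sets 207173_x_at and 236179_at of CDH11, in 218182_s_at of CLDN1 and, far below the filter, in 1569421_at of CLDN4.

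E-cadherin (CDH1), the cadherin of epithelial adherens junctions, read low on every array, between the 8.6th and 29.1st percentile in the TCI04 arrays and between the 2.7th and 18.4th in the PBS arrays over both of its probe sets. The probe set 201130_s_at had signals of 5.79, 3.49 and 7.95 in the TCI04 arrays, against 7.30, 9.64 and 2.17 in the PBS arrays. The other, 201131_s_at, gave 5.22, 3.83 and 21 in the TCI04 arrays, against 5.15, 1.78 and 3.15 in the PBS arrays. The groups overlapped in both, and the single value of 21 came from TCI04 replicate 3, the array with the high ACTB ratio, whose part in it was not tested. All 12 values lie below the filter of 37.0, where a fold between such signals has little meaning. In a fit without the filter the log2 fold changes were -0.04 (95% interval -0.63 to 0.56) and 0.47 (-0.26 to 1.19). Without TCI04 replicate 3 the second was 0.12.

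P-cadherin (CDH3), which basal and myoepithelial breast cells carry, had signals of 21.3, 78.3 and 15.2 in the TCI04 arrays, against 15.5, 11.6 and 41.5 in the PBS arrays. One array in each group was high, and the groups overlapped. Without the filter its log2 fold change was 0.42, with a 95% interval from -0.79 to 1.64, and without TCI04 replicate 2 it turned to -0.12.

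N-cadherin (CDH2), the cadherin that often replaces CDH1 in cells that take a mesenchymal form, was also dim in this line. Its probe set 203441_s_at gave 11.1, 28.8 and 37.0 in the TCI04 arrays, against 60.7, 26.8 and 56.2 in the PBS arrays. For 203440_at the signals were 46.9, 21.9 and 22.8 in the TCI04 arrays, against 35.8, 39.5 and 37.3 in the PBS arrays. Their 6-array means of 36.8 and 34.0 lay just under the filter, while their PBS means of 47.9 and 37.6 lay above 37.0. Means were lower with TCI04 in both, the groups overlapped, and the log2 fold changes without the filter were -0.70 (95% interval -1.69 to 0.28) and -0.28 (-1.11 to 0.56).

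OB-cadherin (CDH11), a cadherin of mesenchymal and bone-forming cells, was the cadherin among the members with signals far above the filter, between the 89.3rd and 89.9th percentile of the PBS arrays. Its brightest probe set, 207173_x_at, had signals of 1887, 1852 and 1954 in the TCI04 arrays, against 1652, 1764 and 1747 in the PBS arrays. All 3 TCI04 arrays lay above all 3 PBS arrays, by a small margin: the log2 fold change was 0.14 ± 0.07 (SE), with a 95% interval from -0.01 to 0.29 and an adjusted p of 0.698 in limma. The ending _x_at marks probes that can match other transcripts, and it holds for this probe set.

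A second probe set of CDH11, 236179_at, pointed the same way, with 368, 377 and 462 in the TCI04 arrays, against 341, 284 and 332 in the PBS arrays. Its groups did not overlap either, and it is the member with an unadjusted p under 0.05. The log2 fold change was 0.32 ± 0.13 (SE), with a 95% interval from 0.03 to 0.62 and an adjusted p of 0.698 in limma. Without TCI04 replicate 3, whose 462 was its highest value, the log2 fold change was 0.22 (95% interval -0.07 to 0.52), and without PBS replicate 2 it was 0.24 (-0.09 to 0.57).

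The other CDH11 probe sets did not separate the groups. For 207172_s_at the signals were 349, 434 and 338 in the TCI04 arrays, against 318, 394 and 407 in the PBS arrays, a log2 fold change of 0.00 with an interval from -0.31 to 0.32. For 239286_at they were 156, 131 and 158 in the TCI04 arrays, against 180, 101 and 151 in the PBS arrays, a log2 fold change of 0.07 with an interval from -0.42 to 0.55. Of the 4 probe sets of the gene, 2 thus had higher TCI04 arrays without overlap and 2 had means within the spread of the arrays.

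By likeness of pattern over the 6 arrays, the genes nearest to CDH11 (207173_x_at) were HAGLR, TMED4 and SAP30L, with Pearson correlations of log2 signal of 0.996, 0.993 and 0.993. Over 6 arrays from 2 groups this is a description, and 251 of 13709 other genes had a correlation above 0.9.

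The claudins come next, and RefSeq promoter windows (GRCh38.p14, 250 bases before to 50 after a gene's start) were at hand for all 4 of them, OCLN and CDH2, but for no other member. Each was searched for the E-box forms CAGGTG and CACCTG, which are each other's reverse complement and so cover both strands without overlapping. The 250 bases before the start are printed below for the CLDN7 start with the most matches, for OCLN and, as a claudin with none, for CLDN1, with the matches in capitals. They were chosen after the matches were counted.
CLDN7, chr17:7262479-7262728, minus strand: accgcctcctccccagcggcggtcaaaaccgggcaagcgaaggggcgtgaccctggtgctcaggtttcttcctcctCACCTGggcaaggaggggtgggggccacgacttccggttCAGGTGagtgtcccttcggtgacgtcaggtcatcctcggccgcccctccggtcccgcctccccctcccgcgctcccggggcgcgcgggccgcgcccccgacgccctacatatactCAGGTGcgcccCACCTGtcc
OCLN, chr5:69492297-69492546, plus strand: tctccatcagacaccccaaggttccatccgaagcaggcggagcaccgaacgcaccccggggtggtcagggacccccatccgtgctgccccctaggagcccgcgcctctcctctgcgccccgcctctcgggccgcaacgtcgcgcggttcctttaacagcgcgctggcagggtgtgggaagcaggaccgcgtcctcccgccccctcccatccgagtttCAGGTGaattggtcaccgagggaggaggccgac
CLDN1, chr3:190322447-190322696, minus strand: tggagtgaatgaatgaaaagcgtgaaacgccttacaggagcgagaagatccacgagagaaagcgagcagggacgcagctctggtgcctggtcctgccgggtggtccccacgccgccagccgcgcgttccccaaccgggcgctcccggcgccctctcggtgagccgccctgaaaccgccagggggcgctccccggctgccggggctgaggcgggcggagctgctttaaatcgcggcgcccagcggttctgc

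The window of this CLDN7 start held 5 matches, 4 of them in the printed bases. Of 35116 promoter windows, 20.6% held at least 1 match and 0.635% held 3 or more, and 0.122% held 4 or more in the bases before the start. The window of the other CLDN7 start held 0. OCLN held 1 match in the window of the printed start and 2 in that of its other start, CLDN3 held 1, after its start, and CLDN1, CLDN4 and CDH2 held 0. A match is a stretch of letters and not a measured binding site, and the arrays do not measure binding.

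CLDN7, a claudin that binds EPCAM in epithelia, was read by 1 probe set, 202790_at. Its signals were 136, 191 and 147 in the TCI04 arrays, against 140, 165 and 204 in the PBS arrays. The groups overlapped almost fully, and the log2 fold change was -0.10, with a 95% interval from -0.53 to 0.34. With all 6 arrays the interval stayed within 1.5-fold in either direction (0.585 on the log2 scale). Without TCI04 replicate 2 it ran from -0.71 to 0.25 and did not.

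CLDN3, a receptor of Clostridium perfringens enterotoxin, scattered widely between arrays of both groups. Its probe set 203954_x_at had 53.8, 69.9 and 22.1 in the TCI04 arrays, against 81.7, 105 and 19.8 in the PBS arrays, and 203953_s_at, below the filter, had 32.7, 7.13 and 17.2 in the TCI04 arrays, against 8.69, 31.5 and 8.64 in the PBS arrays. The log2 fold change of the first was -0.31 with a 95% interval from -1.46 to 0.84, and that of the second, without the filter, 0.15 (-0.87 to 1.16). Without TCI04 replicate 3 the first was 0.07, without PBS replicate 2 it was 0.06 and without PBS replicate 3 it was -0.89, so single arrays decide its value.

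CLDN4, the other claudin that binds this enterotoxin, had probe sets that disagreed. The brighter, 201428_at, gave 208, 232 and 169 in the TCI04 arrays, against 148, 219 and 152 in the PBS arrays, with overlapping groups and a log2 fold change of 0.23 (95% interval -0.21 to 0.66). The dim 1569421_at gave 8.20, 6.01 and 1.91 in the TCI04 arrays, against 8.49, 15.9 and 22.8 in the PBS arrays. There every TCI04 array lay below every PBS array, with 8.20 against 8.49 as the nearest values, all under the filter. Its log2 fold change without the filter was -0.69 (-1.40 to 0.02, adjusted p = 0.750 in limma). Of all 21845 probe sets below the filter, 11.6% had groups that did not overlap.

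CLDN1, a claudin of the epidermal barrier and of many epithelia, had lower means with TCI04 in both of its probe sets. The dimmer, 218182_s_at, read 89.5, 113 and 104 in the TCI04 arrays, against 124, 168 and 137 in the PBS arrays. The groups did not overlap, with 113 the highest TCI04 and 124 the lowest PBS signal. The log2 fold change was -0.44 ± 0.20 (SE), with a 95% interval from -0.88 to 0.00 and an adjusted p of 0.698 in limma, and from -0.53 to -0.33 with single arrays left out. It was -0.32 after quantile normalization and -0.28 with arrays centred on their medians.

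In the brighter probe set of CLDN1, 222549_at, the difference was smaller than the spread between arrays. Its signals were 418, 435 and 478 in the TCI04 arrays, against 499, 422 and 540 in the PBS arrays. The log2 fold change was -0.13 (95% interval -0.39 to 0.14), and 0.03 with arrays centred on their medians, a scaling that moved the median of all tested genes to 0.16.

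Occludin (OCLN), a membrane protein of the tight junction, was the brightest of the tight junction members on the array. Its probe set 227492_at had signals of 1366, 1409 and 1594 in the TCI04 arrays, against 1467, 1409 and 1343 in the PBS arrays. The groups overlapped, and the log2 fold change of 0.05 had a 95% interval from -0.14 to 0.23, the narrowest among the tight junction members. The further probe sets 231022_at, 209925_at and 235937_at had group means of 285, 196 and 86.4 with TCI04, against 288, 190 and 69.5 with PBS, and log2 fold changes of -0.03, 0.05 and 0.23. All 3 had groups that overlapped.

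EPCAM, an adhesion protein of epithelial cells that also marks carcinoma, averaged 404 ± 58.1 with TCI04 and 405 ± 15.8 with PBS (SD, n = 3 arrays each). The signals of its probe set were 418, 454 and 340 in the TCI04 arrays, against 393, 400 and 423 in the PBS arrays. The PBS arrays lay between the TCI04 arrays, with TCI04 replicate 3 the lowest of the 6. The log2 fold change was -0.01 with a 95% interval from -0.30 to 0.27.

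**Figure D3:**
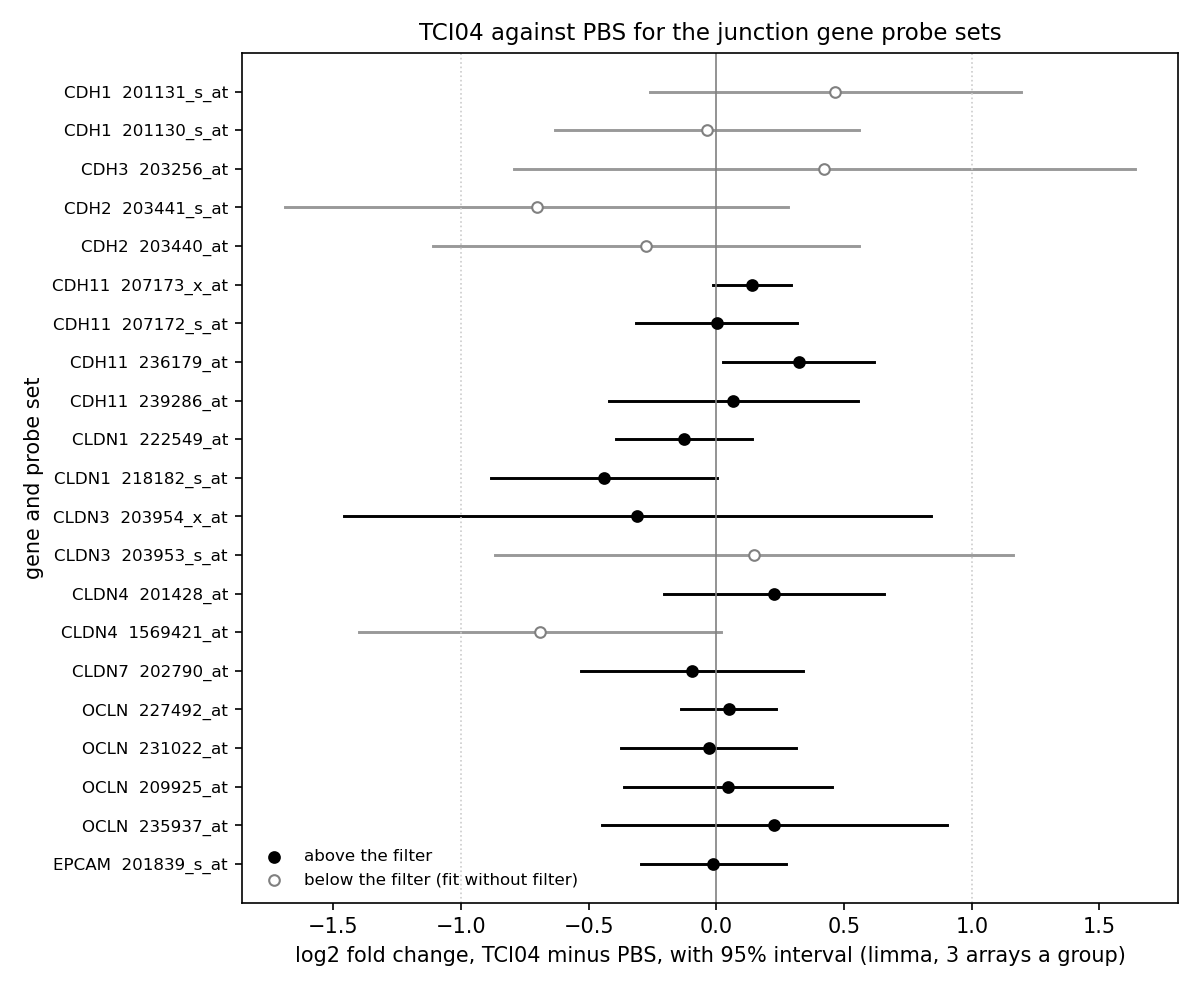
Log2 fold change of each member probe set (TCI04 minus PBS) with its 95% interval from limma, filled where the probe set was above the filter and open where it was below and the fit without the filter was used. Dotted lines mark 2-fold. Only the interval of 236179_at of CDH11 lies wholly on 1 side of 0.

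Over genes, each taken by its brightest probe set, the 7 members above the filter had a median log2 fold change of -0.01, with 3 higher and 4 lower, against a median of -0.003 and 49.3% higher over 13710 genes. Other junction genes were listed by their place in the junction, and of 50 tested, 21 had a higher and 29 a lower mean with TCI04 and 0 passed the adjusted threshold (limma), where 0% of all tested genes passed toward higher and 0.00729% toward lower values. Their median was -0.02. At an unadjusted p under 0.05, 3 were lower and 0 higher, where 4.23% of all tested genes were lower and 2.89% higher.

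The adherens junction list (10 tested) had a median of 0.02, with 6 genes higher. Its brightest members, the actin linker vinculin (VCL), alpha-catenin (CTNNA1) and beta-catenin (CTNNB1), averaged 9664, 9346 and 8519 with TCI04, against 9398, 9333 and 8952 with PBS, and had log2 fold changes of 0.04, 0.00 and -0.07. VCL and NECTIN3, an adhesion protein of adherens junctions (named after its value was seen, log2 fold change 0.15), had groups that did not overlap, where 6.64% of all tested genes were higher without overlap. In the other probe set of each gene the groups overlapped, with log2 fold changes of -0.07 for VCL and 0.09 for NECTIN3.

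In the tight junction list (17 tested, 7 higher, median -0.01) the brightest genes were the scaffold TJP1, which encodes ZO-1, and the polarity genes PALS1 and PRKCI, with log2 fold changes of 0.04, 0.08 and 0.04. The 3 junction genes with an unadjusted p under 0.05 were all in this list: MARVELD1, the kinase PRKCZ and SYMPK, named after their values were seen, with log2 fold changes of -0.34, -0.30 and -0.27 and an adjusted p of 0.698 each (limma). Their TCI04 and PBS arrays did not overlap, where 6.91% of all tested genes were lower without overlap. The other tested probe sets of SYMPK gave -0.35 and 0.08. SYMPK encodes symplekin, which also serves in RNA 3' end processing.

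In the desmosome list (7 tested, 3 higher, median -0.02) the desmosomal cadherin DSG2 averaged 4166 ± 347 with TCI04 and 3852 ± 53.5 with PBS (SD, n = 3 arrays each), a log2 fold change of 0.11. The groups did not overlap, but its other probe set gave -0.01. The plaque genes PKP4 and DSP had log2 fold changes of -0.02 and 0.09. DSP, which links desmosomes to keratin filaments, averaged 2887 ± 425 with TCI04 and 2687 ± 59.7 with PBS (SD, n = 3 arrays each), with the wider spread in the TCI04 arrays.

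The other cadherins (7 tested of 16 on the array) and other claudins (9 tested of 16) had medians of -0.25 and -0.15, with 6 of 7 and 5 of 9 lower. Most of these were dim, though not all. The 3 brightest cadherins, CDH24, CDH22 and CDH26, averaged 194, 99.0 and 65.5 with TCI04, against 213, 126 and 79.6 with PBS. The brightest claudin was CLDN12, at 3082 ± 174 with TCI04 and 2986 ± 72.3 with PBS (SD, n = 3 arrays each) and a log2 fold change of 0.04. CLDN15 averaged 437 with TCI04 and 420 with PBS (0.07). CLDN23 averaged 193 with TCI04 and 168 with PBS (0.19). In a split by level chosen after seeing the data, dim genes as a whole read lower with TCI04: the 3083 tested genes with a mean signal from 37.0 to 100 had a median of -0.15, and the 5163 at 1000 or more had 0.03. After quantile normalization these were 0.01 for both, and the medians of the other cadherins and claudins were -0.10 and -0.08.

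**Figure D4:**
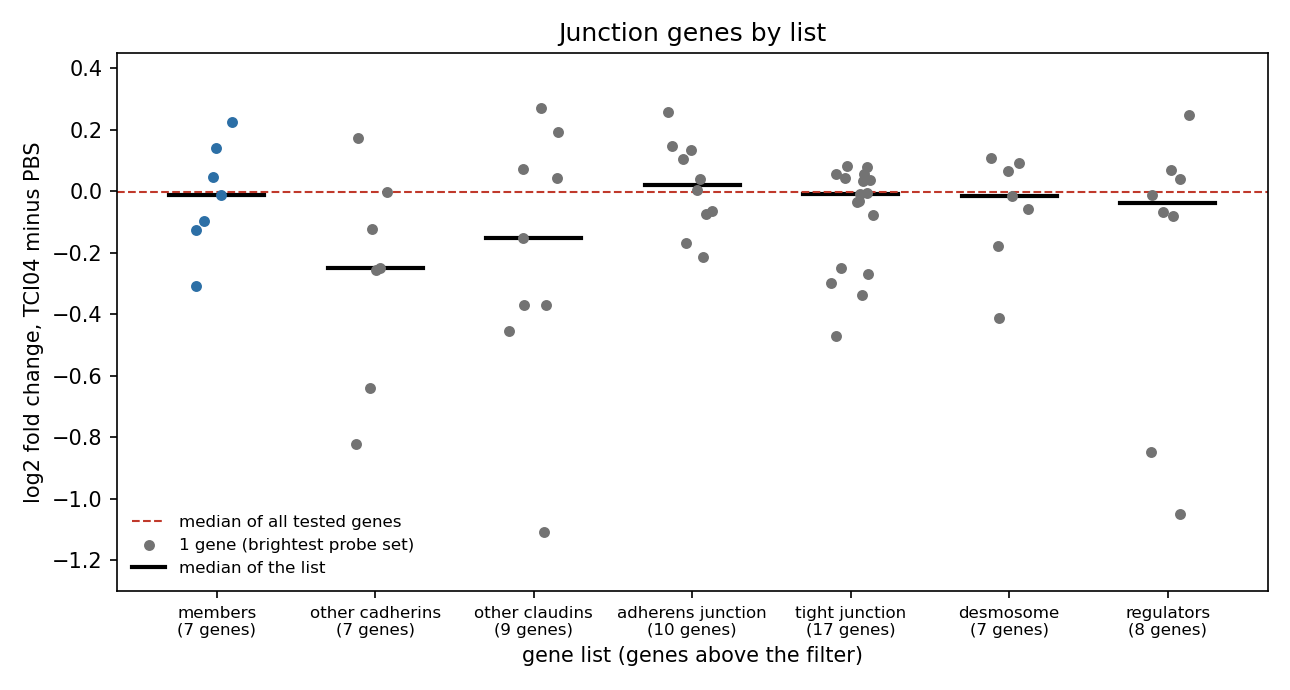
Log2 fold change (TCI04 minus PBS) of each tested gene by list, by its brightest probe set, with the list's median as a bar and the median of all tested genes as a dashed line. The members' median is -0.01, and those of the other cadherins and other claudins are -0.25 and -0.15.

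Of the regulators of epithelial junctions, 3 of 8 tested had a higher mean and 0 passed. The repressor ZEB1, a transcription factor that is typically high in the claudin-low class, had signals of 2831, 2519 and 3007 in the TCI04 arrays, against 2610, 2702 and 2632 in the PBS arrays, and a log2 fold change of 0.07. Its further tested probe sets ran from -0.34 to 0.25. SNAI2, another repressor of CDH1, averaged 1006 ± 47.2 with TCI04 and 1017 ± 114 with PBS (SD, n = 3 arrays each), a log2 fold change of -0.01. The protease inhibitor SPINT2 had a log2 fold change of 0.04.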

How the data were processed

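RNA of MDA-MB-231 cells was hybridised to Affymetrix arrays, 3 after TCI04 and 3 after PBS. The authors deposited linear intensity values made with MAS5, per the submitters' processing notes; version and detection calls: not given in the sources used here. From 54675 probe sets, 62 controls were left out. Platform annotation gave 1 symbol for 41097, several for 1801 and none for 11777; the Entrez ID of 41043 with 1 symbol matched RefSeq and 0 symbols changed. The other probe sets stayed unnamed.

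The fit used log2(signal + 10.96), with the 20th percentile of the table as offset, so fold changes of dim probe sets are understated. Probe sets with a mean below the 40th percentile were left out, and 32768 were fitted with limma 3.58.1 in R 4.3.3 (eBayes with trend, two-sided, TCI04 minus PBS), with Benjamini-Hochberg adjustment over all of them. Members below the filter take their values from a fit to all 54613 probe sets. The number of arrays limits the precision: the median 95% interval reached 0.375 to each side for tested member probe sets and 0.275 for genes.

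The members, lists and tests were chosen with earlier results of these data known. Named are every member, the 3 brightest genes and any passing gene of each other list, ACTB and GAPDH for RNA quality, and the 3 genes most like CDH11. Any other gene, the cell type markers included, was picked once its values were known. The 3' to 5' ratio of GAPDH was 0.97 to 1.21 with TCI04 and 0.98 to 1.07 with PBS. Alternatives were other normalizations, offsets, filters and variance models, averaged probe sets, a replicate block and each array left out.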

Additional observations from a re-analysis of the deposited data

How the results depend on the processing

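No member probe set or gene passed the adjusted threshold in any of 15 alternatives: the count of 0 in each direction stayed at 0 under quantile normalization, median centring, offsets of 1 and 63.6, no filter, a filter at the 60th percentile, eBayes without trend, averaged probe sets, the replicate block and with each array left out. Of 138 gene values in these alternatives, 127 kept their direction, 11 turned, and the smallest adjusted p was 0.281. The sign of a log2 fold change turned for CLDN1 (0.033), CLDN7 (0.065) and EPCAM (0.147) with median centring, which moves the median of all tested genes to 0.157, and for EPCAM (0.032) after quantile normalization. With single arrays left out the values ran from -0.117 to 0.791 for CDH3, -0.892 to 0.068 for CLDN3, -0.23 to 0.036 for CLDN7, -0.099 to 0.103 for EPCAM and -0.019 to 0.092 for OCLN. The cause was not tested. By brightest or averaged probe sets, the directions of CDH1, CDH2, CDH11 and CLDN4 held in all alternatives that measured them. Other probe sets did not all share these directions: without the filter 201130_s_at of CDH1 gave -0.037 and 1569421_at of CLDN4 gave -0.691. Sizes by brightest probe set moved: with single arrays left out the values ran from 0.118 to 0.673 for CDH1, -0.996 to -0.375 for CDH2, 0.111 to 0.158 for CDH11 and 0.129 to 0.398 for CLDN4, and from -0.224 to -0.05 for CLDN1. CDH1 was 1.072 with an offset of 1 and 0.129 with an offset of 63.6. Whether same-numbered arrays share a culture or day is not stated. Deviations of same-numbered arrays from their group means correlated at 0.007, 0.068 and 0.055. The highest correlations with another number were 0.001, -0.014 and 0.006. Every TCI04 array thus had its highest correlation with the PBS array of its own number, but all of these values were near 0. Whether they reflect a pairing was not tested. With the replicate block 0 members passed and CDH11 stayed at 0.14. Signals near or below the filter, as for CDH1, CDH2, CDH3 and CLDN3, limit what can be said of these genes.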

Other observations

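Among the regulators of epithelial junctions, SPINT1, an inhibitor of the membrane protease matriptase, is described here after its values were seen. Its tested probe set read 132, 106 and 78.0 in the TCI04 arrays, against 184, 226 and 175 in the PBS arrays. All TCI04 arrays lay below all PBS arrays, and the log2 fold change was -0.85 with a 95% interval from -1.32 to -0.37, but it failed the correction (limma, adjusted p = 0.698). It was the 1 of 8 tested regulators that was lower without overlap. Of all tested genes 6.91% were lower without overlap and 4.23% at an unadjusted p under 0.05 in limma. The other SPINT1 probe set, below the filter, gave -0.21 without the filter, with overlapping groups. The tested probe set of the matriptase gene ST14 read 22.7, 30.0 and 6.77 in the TCI04 arrays, against 99.2, 74.4 and 12 in the PBS arrays. Its groups overlapped, with a log2 fold change of -1.05 (-2.40 to 0.30). The further ST14 probe sets, below the filter, had higher means with TCI04. Without the filter 216905_s_at gave 0.81 (0.16 to 1.46), with groups that did not overlap, and 216906_at gave 0.24, so the ST14 probe sets disagreed. After quantile normalization the values of the tested probe sets were -0.75 for SPINT1 and -0.89 for ST14, which was also picked after its values were seen.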
